A study of Homo sapiens with 8 samples.

Results

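HL60 and Kasumi-1 are established human acute myeloid leukaemia lines, and the libraries compared here came from both lines after 24 h in 100 nM cinobufagin. HL60 is a promyelocytic line, and Kasumi-1 carries the RUNX1-RUNX1T1 fusion. Cinobufagin is a bufadienolide, a cardiac glycoside from toad venom that blocks the sodium pump. The series holds 8 libraries of poly(A) RNA, with replicates 1 and 2 of each line with and without the drug, and the 4 treated libraries were compared by cell line. The untreated libraries of each line, cultured without the drug, served to say whether a difference between the lines was already present. Both lines grew in RPMI-1640, HL60 with 10% and Kasumi-1 with 20% fetal bovine serum, so line and serum cannot be told apart in any result below. Each line is 1 culture line, and the labels do not say whether the replicates were separate cultures, so p-values measure the spread between libraries, which may be technical. Of 25593 rows in the table, 12016 reached 1 FPKM in at least 2 of the 4 treated libraries. After leaving out 168 short RNA rows and 53 rows of repeated symbols, 11795 genes were tested. FPKM counts fragments per kilobase of transcript, scaled to the size of the library, so every difference is relative to the other transcripts of the same library, and total mRNA per cell was not measured. As these were bulk samples, fewer cells of a type and less RNA per cell cannot be told apart.

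MYC is a transcription factor that pairs with MAX at E-box sequences and drives ribosome production, nucleotide synthesis and cell growth, while MXD proteins compete for MAX and are known from maturing myeloid cells. Myeloid precursors fill primary granules with MPO and the serine proteases ELANE, PRTN3, CTSG and AZU1 at the promyelocyte stage, and later switch to other granule proteins and to monocyte or neutrophil surface receptors. NF-kB and AP-1 are the transcription factors best known for switching on chemokines, cytokines and their own feedback inhibitors after stress or microbial signals.

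The treated lines differed in most of the transcriptome. Treated Kasumi-1 was at the high end for primary granule proteases, stem cell genes, MYC and ribosomal genes. Treated HL60 was at the high end for most tested chemokines, cytokines, immediate early factors, monocyte receptors and S100 proteins. It was also higher for most genes of the list of cyclin-dependent kinase (CDK) inhibitors and G1 cyclins. By limma's moderated test with Benjamini-Hochberg adjustment over all genes, 9976 of 11795 genes (84.6%) had an adjusted p under 0.05, here termed called. Of all genes, 5048 (42.8%) were called higher in Kasumi-1 and 4928 (41.8%) higher in HL60. With the added limit of at least 2-fold on the log2(FPKM+1) scale, 2627 genes (22.3%) were higher in Kasumi-1 and 2166 (18.4%) higher in HL60. These shares are the background for each gene group below. Over all genes, 767 passed the filter through HL60 alone and 1341 through Kasumi-1 alone, so for these the direction was set by the filter. This applies to members of many lists below, also where it is not repeated. Through HL60 alone passed 9 of 12 tested chemokines, 13 of 22 cytokines, 12 of 31 immediate early factors and 12 of 24 monocyte and granulocyte surface genes. Through Kasumi-1 alone passed 7 of 11 stem and progenitor genes. Between the lines 91.7% of genes, 10814 in all, had both libraries of one line above both of the other, so a lack of overlap was the rule, and it held for every gene given below with a called difference. The median difference over all genes was 0.01 on the log2(FPKM+1) scale in treated and in untreated cells, the level against which list medians are read.

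Among the genes tested, the difference between the lines was larger with the drug than without it. The median absolute difference was 0.79 on the log2(FPKM+1) scale in treated cells and 0.47 in untreated cells. In untreated cells 1632 genes (13.8%) were at least 2-fold higher in Kasumi-1 and 1152 (9.77%) in HL60. The filter used the treated libraries alone and left out genes expressed only in untreated cells, which can favour a wider treated difference. With no filter on low values, over 18371 genes, 2650 were at least 2-fold higher in treated Kasumi-1 and 2173 in treated HL60. The untreated counts were then 1716 in Kasumi-1 and 1272 in HL60. Across the 11795 genes the treated and the untreated differences, which share no library, had a Pearson r of 0.78 and a Spearman rho of 0.71. The change of the difference from untreated to treated cells was itself tested as an interaction, with log2 differences always taken as Kasumi-1 minus HL60. It was called towards Kasumi-1 in 3646 genes (30.9%) and towards HL60 in 4146 genes (35.2%). In 2216 genes the 2-fold difference was present in both states with the same sign. A further 2552 genes were at least 2-fold apart only in treated cells, and the interaction was called in 2385 of them. In 543 genes the 2-fold difference was called only in untreated cells, with the interaction called in 465. Over whole libraries, treated and untreated Kasumi-1 libraries had r of 0.985 to 0.988 over log2(FPKM+1), treated and untreated HL60 libraries 0.875 to 0.878. Between the treated lines r was 0.722 to 0.725, while replicates of the treated groups reached 0.997 in HL60 and 0.996 in Kasumi-1.

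**Figure D1:**
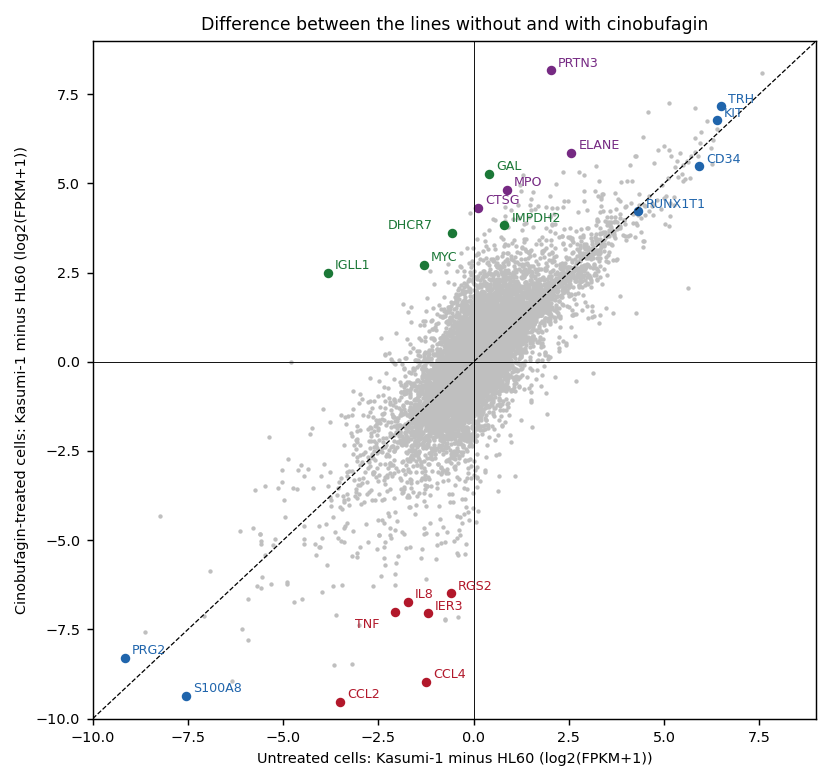
Each point is 1 of the 11795 genes, with the Kasumi-1 minus HL60 difference in log2(FPKM+1) of untreated cells on the x axis and of treated cells on the y axis. The dashed line marks an equal difference in both states; KIT and RUNX1T1 lie near it, CCL4 at -8.97 and IL8 at -6.73 lie far below it, and PRTN3 at 8.17 and MYC at 2.71 lie above it.

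The library facts that bear on these values were as follows. The 4 treated libraries had 10623 to 11287 genes at 1 FPKM or more. The deposited table holds no read counts, and relative depth was read from the spacing of low FPKM values in 475 genes: with treated HL60 replicate 1 set to 1, the other treated libraries stood at 1.06, 0.796 and 1.15. Among markers of other cell types, 2 of 24 erythroid and megakaryocyte genes, 3 of 19 T and NK cell genes, 2 of 12 B cell genes and 2 of 17 fibroblast and epithelial genes passed the filter. Their summed FPKM was 53.6 and 56.6 in treated HL60 and 52.9 and 59.9 in treated Kasumi-1 for the erythroid list, where TFRC was highest. For the T and NK list it was 116 and 109 against 44.0 and 46.8, for the B cell list 1.37 and 0.956 against 18.9 and 13.5, and for the fibroblast and epithelial list 1.87 and 1.63 against 74.6 and 77.0, almost all of it EPCAM at 72.7 and 75.6 in Kasumi-1. Of the same lists 11, 6, 4 and 8 genes were listed at 0 in all treated libraries, and their part in the results was not tested.

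Of 11 genes listed to identify the lines, 6 were at least 2-fold higher in treated Kasumi-1 and 3 in treated HL60, and gaps moved towards Kasumi-1 in 3 and towards HL60 in 5. RUNX1T1, the fusion partner, was listed at 0 in both treated HL60 libraries and stood at 16.1 and 19.2 FPKM in treated Kasumi-1. CD34, the progenitor surface antigen, was likewise listed at 0 in HL60 and at 43.3 and 44.3 FPKM in Kasumi-1. For the receptor tyrosine kinase KIT the values were 0.270 and 0.302 against 134 and 145 FPKM. In these 3 genes no HL60 library approached a Kasumi-1 library. All 3 passed the filter through Kasumi-1 alone, so their direction was set by the filter. Of the 11 genes, 5 passed through Kasumi-1 alone and 2 through HL60 alone. The members higher in HL60 were less distinct without the drug. CDKN2A, which encodes a CDK4 inhibitor, was at 35.2 and 30.1 against 8.22 and 5.69 FPKM, while its untreated difference of -0.11 was not called (limma adjusted p = 0.54). RUNX1T1 differed by 4.22 (SE 0.11, limma adjusted p = 7.1e-09) and its gap was not called as changed from the untreated state (-0.10, SE 0.16, adjusted p = 0.58). KIT differed by 6.77 (SE 0.09) with a gap wider by 0.39 (limma adjusted p = 0.028), and CD34 by 5.49 (SE 0.07) with a gap narrower by 0.44, an interaction of -0.44 (limma adjusted p = 0.0039).

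The stem and progenitor genes were on the Kasumi-1 side: 9 of the 11 tested members were at least 2-fold higher there and 1, GATA2, in HL60, with a median difference of 1.65 against 1.90 without the drug. The list has 22 members, the other 11 were under the filter, and 7 of the 11 passed through Kasumi-1 alone, so they had to differ. HOXA10, a homeobox factor of immature myeloid cells, was at 0.0986 and 0.0805 FPKM in treated HL60 and at 14.0 and 17.0 in treated Kasumi-1. GATA2, a factor of progenitors and mast cells, ran the other way at 24.5 and 23.3 against 6.43 and 6.05 FPKM. Neither gene's gap was called as changed by the drug (limma adjusted p = 0.092 and 0.13).

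Other genes among the 10 largest differences towards Kasumi-1 were mostly secreted or surface proteins. TRH, the precursor of thyrotropin-releasing hormone, was listed at 0 in HL60 and stood at 147 and 138 FPKM in Kasumi-1 (difference 7.16, SE 0.06). The secreted protein gene C1QTNF4 stood at 0 and 0.0443 against 270 and 288 FPKM (8.10, SE 0.09). EGFL7, a secreted factor of endothelial and stem cells, was at 0.573 and 0.606 against 249 and 231 FPKM, and CLEC11A, a growth factor for haematopoietic progenitors, at 6.61 and 5.57 against 959 and 841 FPKM. These genes separated the untreated lines too, but the gap of EGFL7 was wider by 2.11 (SE 0.12) and that of CLEC11A by 2.43 (SE 0.15, limma adjusted p = 5.3e-06). The tetraspanin CD37 differed by 6.31, the protease inhibitor SPINT2 by 7.10, the matrix protein SPARC by 6.43 and the membrane protease PRSS21 by 6.52.

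Primary granule genes split into opposite camps. Of the 16 tested of 17, 7 were at least 2-fold higher in Kasumi-1, 7 in HL60 and 2 were not called, with a median of 0.15 in treated and -1.98 in untreated cells. The gap moved towards Kasumi-1 in 14 and towards HL60 in 2. PRTN3, proteinase 3, showed the widest difference of the whole comparison towards Kasumi-1: treated HL60 held 9.03 and 10.5 FPKM, treated Kasumi-1 3146 and 3048. The untreated lines had stood at 548 and 531 against 2262 and 2144 FPKM, so the difference went from 2.03 to 8.17 (change 6.14, SE 0.11, limma adjusted p = 8.8e-08). MPO, the peroxidase that defines the myeloid lineage, was at 245 and 274 FPKM in treated HL60 and at 7379 and 7381 in treated Kasumi-1, after 3285 and 3369 against 6013 and 6098 without the drug. ELANE, neutrophil elastase, stood at 25.4 and 27.4 against 1666 and 1505 FPKM. For CTSG, cathepsin G, the treated values were 14.4 and 16.1 against 354 and 295 FPKM, while the untreated lines had not been called different (0.11, limma adjusted p = 0.39). In all 4 protease and peroxidase genes the treated HL60 libraries were the lowest of the 8.

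The other camp of granule genes stayed with HL60. PRG2, the eosinophil major basic protein, stood at 1230 and 1523 FPKM in treated HL60 and at 2.73 and 4.09 in treated Kasumi-1, a difference of -8.30 (SE 0.17) that was narrower than the -9.16 of untreated cells. LYZ, lysozyme, was at 1029 and 1198 against 16.5 and 15.4 FPKM. DEFA1, a defensin with near-identical copies among which reads may be split, was at 106 and 108 against 3.21 and 2.47 FPKM. In the eosinophil, basophil and mast cell list 8 of 11 tested members were at least 2-fold higher in HL60, but 7 of the 11 passed the filter through HL60 alone, so they had to differ. Among them was CLC, the Charcot-Leyden crystal protein, at 205 and 176 FPKM against a listing at 0 in both Kasumi-1 libraries. EPX, eosinophil peroxidase, was at 17.6 and 26.0 against 0.113 and 0.138 FPKM, and its gap of -4.31 was smaller than the -8.23 of untreated cells (change 3.92, SE 0.21).

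Secondary and tertiary granule genes and monocyte genes were higher in HL60. All 8 tested of 16 secondary and tertiary granule genes were at least 2-fold higher there (median -5.07, untreated -2.03), and all 8 passed the filter through HL60 alone, so the direction was set by the filter. The classical late granule genes LTF, LCN2, CAMP and MMP8 did not reach the filter in either treated line. HP, haptoglobin, whose near-copy HPR may share its reads, stood at 427 and 441 FPKM in treated HL60 and at 0.203 and 0.254 in treated Kasumi-1, while untreated HL60 had 9.25 and 9.97. FCAR, the IgA receptor, was at 77.8 and 82.4 against 0.124 and 0.410 FPKM, and CHI3L1, a chitinase-like secreted protein, at 125 and 118 against 0.782 and 0.587 FPKM.

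Among monocyte and granulocyte surface genes, 19 of 24 tested (33 listed) were at least 2-fold higher in HL60 and 2 in Kasumi-1, with a median of -3.09 against -1.23 in untreated cells, and 12 of the 24 passed through HL60 alone. CD14, the lipopolysaccharide co-receptor, was at 39.2 and 37.9 FPKM in treated HL60 and at 0.0536 and 0.0806 in treated Kasumi-1, and untreated HL60 stood at 2.96 and 2.47. CD86, a costimulatory ligand, was at 65.3 and 66.7 against 0.0860 and 0.0875 FPKM, and FPR1, the formyl peptide receptor, at 50.4 and 52.1 against a listing at 0. The exceptions were 2 growth factor receptors. CSF3R, the G-CSF receptor, was at 9.69 and 9.66 against 218 and 216 FPKM (difference 4.35, SE 0.05). CSF1R, the M-CSF receptor, was at 0.0154 and 0.0283 against 1.05 and 1.42 FPKM and passed the filter through Kasumi-1 alone. A further receptor of the list, CSF2RA, was not tested as a repeated symbol and ran towards HL60, at 12.7 and 11.4 against 1.27 and 1.33 FPKM. Gaps moved towards HL60 in 18 of the 24 genes and towards Kasumi-1 in 3.

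The S100 proteins, small calcium-binding proteins of which S100A8 and S100A9 form calprotectin, had a median of -5.59 (untreated -3.68), with 8 of 10 members at least 2-fold higher in HL60. S100A8 stood at 1405 and 1217 FPKM in treated HL60 and at 0.674 and 1.35 in treated Kasumi-1 (difference -9.37, SE 0.36). S100A9 was at 2967 and 2902 against 6.14 and 3.89 FPKM, and S100A10, the annexin A2 partner, at 385 and 363 against 0.0836 and 0. S100A13 and S100Z were the exceptions, higher in Kasumi-1 by 1.34 and 3.04. In the phagocyte NADPH oxidase, which makes superoxide, the catalytic subunit CYBB was at 117 and 130 against 0.172 and 0.297 FPKM. NCF1, which has near-identical pseudogenes, was at 52.6 and 47.2 against 0.218 and 0.573. Both genes passed the filter through HL60 alone, while CYBA was higher in Kasumi-1 by 0.78. VIM, the intermediate filament vimentin, and SERPINB2, an inhibitor of plasminogen activators, completed the 10 largest differences towards HL60, at 235 and 253 against 0.147 and 0.0744 FPKM and at 175 and 166 against 0.0416 and 0.0313 FPKM.

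Myeloid transcription factors and antigen presentation genes were divided. Of 23 tested myeloid factors, 11 were at least 2-fold higher in HL60 and 5 in Kasumi-1, with medians of -0.91 and -0.89 in treated and untreated cells. Of the 23, 4 passed the filter through HL60 alone and 2 through Kasumi-1 alone. The retinoic acid receptor RARA was at 49.1 and 51.9 FPKM in treated HL60 against 4.75 and 4.67 in treated Kasumi-1, and NFE2 at 23.9 and 24.4 against 0.982 and 1.33. GFI1, a repressor that acts in granulocyte precursors, was higher in Kasumi-1 at 126 and 139 against 34.9 and 33.8 FPKM, as was IRF5 at 23.1 and 21.8 against 1.07 and 1.49. Of 12 HLA class II entries only HLA-DRA and the invariant chain CD74 were tested. HLA-DRA was listed at 0 in HL60 and at 5.94 and 5.55 FPKM in Kasumi-1, and CD74 was at 1.02 and 1.32 against 74.7 and 69.0. Class I and peptide loading genes were divided, with 5 of 16 tested at least 2-fold higher in HL60 and 2 in Kasumi-1, and gaps moved towards Kasumi-1 in 8. Their median of -0.65 became -0.17 with a filter at FPKM 5. On the HL60 side were HLA-B at 832 and 895 against 187 and 184 FPKM and HLA-C at 385 and 386 against 80.4 and 71.5, and on the Kasumi-1 side the chaperone CALR at 572 and 609 against 1366 and 1419 and the peptidase ERAP1 at 3.86 and 3.82 against 14.1 and 15.5. Class I alleles are similar in sequence and differ between lines, so these values also depend on how reads of each allele were placed.

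**Figure D2:**
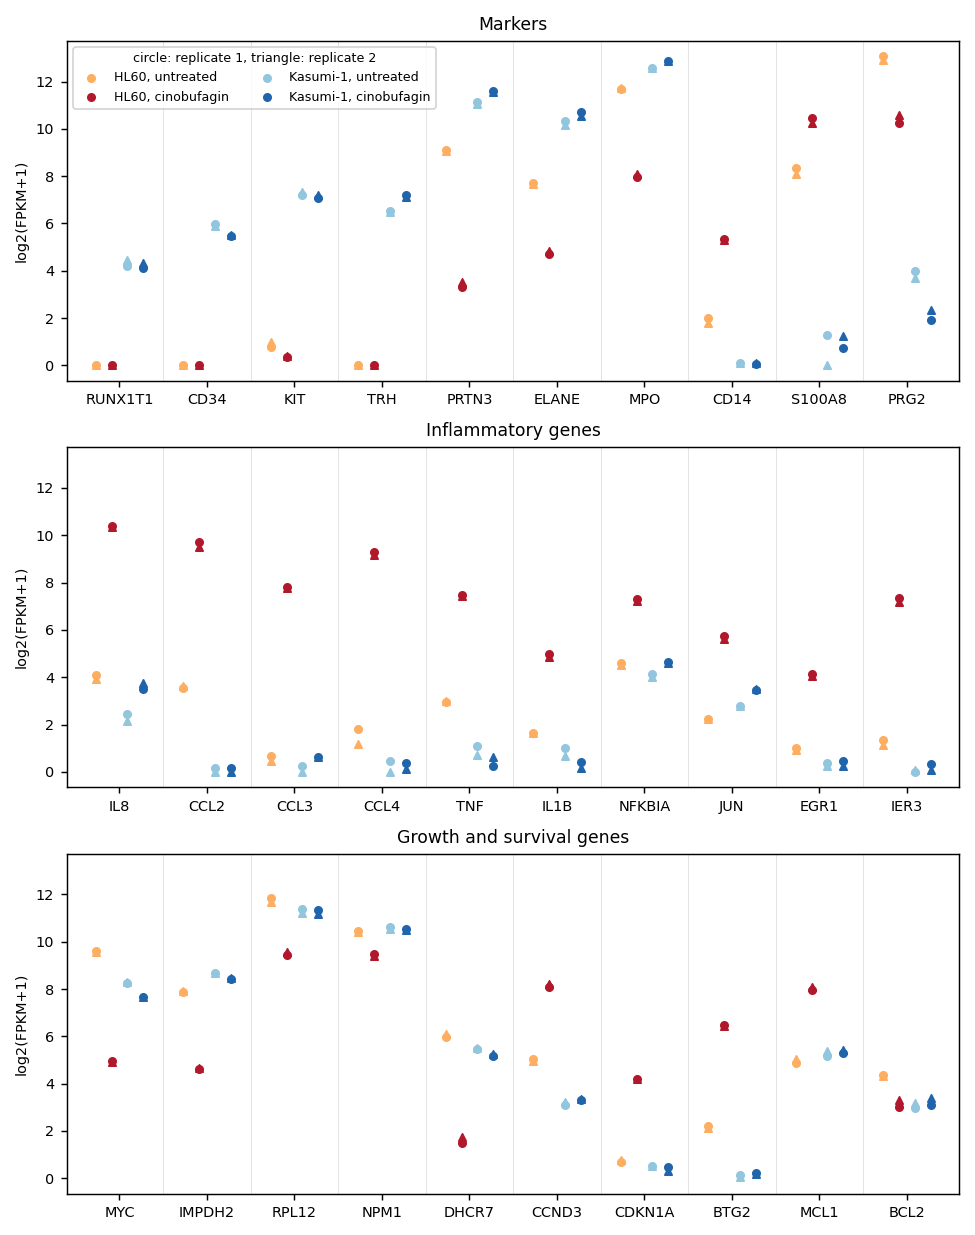
Values of 10 marker, 10 inflammatory and 10 growth and survival genes in each of the 8 libraries, as log2(FPKM+1) on the y axis, coloured by line and treatment, with circles for replicate 1 and triangles for replicate 2. Treated HL60 (dark red) stands apart from the other groups in the inflammatory panel, while the treated and untreated Kasumi-1 points (blue) lie close together; IL8 is at 1330 and 1295 FPKM in treated HL60 and at 10.4 and 12.4 in treated Kasumi-1.

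Chemokine genes were among the widest differences between the treated lines. Of 23 listed chemokines 12 were tested, 8 were at least 2-fold higher in HL60 and 1 in Kasumi-1, with a median of -2.30 in treated and -0.20 in untreated cells; 9 of the 12 passed through HL60 alone. CCL2, which attracts monocytes, stood at 846 and 730 FPKM in treated HL60 and at 0.131 and 0 in treated Kasumi-1, a difference of -9.53 (SE 0.10, limma adjusted p = 2.2e-10). CCL4 was at 617 and 574 against 0.308 and 0.0772 FPKM and CCL3 at 221 and 215 against 0.541 and 0.541. These macrophage inflammatory proteins have near-identical copies, so how their reads were split is uncertain. IL8, the neutrophil attractant CXCL8, stood at 1330 and 1295 against 10.4 and 12.4 FPKM. Without the drug CCL3 had been under 1 FPKM in all 4 libraries of both lines, and IL8 at 15.9 and 14.4 in HL60 against 4.39 and 3.40 in Kasumi-1. CXCL1 alone ran towards Kasumi-1, listed at 0 in HL60 and at 2.28 and 1.06 FPKM in Kasumi-1, with no called change of its gap (limma adjusted p = 0.75). All 12 together made up 0.587% and 0.555% of the summed FPKM of tested genes in treated HL60 and 0.0114% and 0.0113% in treated Kasumi-1.

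Most tested cytokines and their receptors were also called higher in HL60. Of 35 cytokines 22 were tested, with 17 at least 2-fold higher in HL60 and 3 in Kasumi-1 (median -1.55, untreated -0.34). Of the 22, 13 passed through HL60 alone. Their summed share of FPKM ran the other way, at 0.159% and 0.152% in treated HL60 and 0.198% and 0.186% in treated Kasumi-1. TNF stood at 177 and 169 FPKM in treated HL60 and at 0.194 and 0.546 in treated Kasumi-1, against 6.72 and 6.98 and 1.15 and 0.647 without the drug. IL1B, the inflammasome product, was at 30.8 and 27.9 against 0.329 and 0.124 FPKM, its antagonist IL1RN at 32.7 and 32.0 against 0 and 0.0346, and the lymphotoxin gene LTB at 32.8 and 29.2 against 0.221 and 0. TNFSF13B, which encodes the B cell factor BAFF, was the largest exception at 0.709 and 0.711 against 40.8 and 43.0 FPKM. Of 29 tested receptors of cytokines and chemokines 21 were at least 2-fold higher in HL60 and 2 in Kasumi-1, and gaps moved towards HL60 in 27; 9 of the 29 passed through HL60 alone. CXCR4, the receptor for CXCL12, was at 320 and 315 against 3.09 and 3.08 FPKM, and most of that gap was present without the drug (-5.69 of -6.28). IL1R1 was at 19.9 and 19.1 FPKM against a listing at 0 in Kasumi-1, and its untreated gap had been -0.37.

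The NF-kB group and the immediate early factors were both higher in treated HL60. Of 25 tested NF-kB subunits and regulators, 14 were at least 2-fold higher in HL60 and 1, the kinase IKBKE, in Kasumi-1 (median -1.11, untreated -0.32). Of the 25, 4 passed the filter through HL60 alone. NFKBIA, the inhibitor that NF-kB itself induces, was at 160 and 148 FPKM in treated HL60 and at 24.0 and 23.5 in treated Kasumi-1. The deubiquitinase TNFAIP3 was at 33.9 and 32.6 against 1.98 and 1.82 FPKM, and the co-activator BCL3 at 32.2 and 31.5 against 0.684 and 0.706. For AP-1, EGR and related factors 26 of 31 tested genes were at least 2-fold higher in HL60 and none in Kasumi-1 by limma, with 29 called towards HL60 and 2 not called, and a median of -2.36 against -0.16 in untreated cells. Of the 31, 12 passed the filter through HL60 alone, so for these the direction was set by the filter. FOS was at 124 and 116 against 2.98 and 3.62 FPKM, FOSB at 36.4 and 38.3 against 0.218 and 0.292, EGR1 at 16.4 and 15.6 against 0.387 and 0.200 and IER3, an immediate early survival gene, at 161 and 144 against 0.274 and 0.0515. JUN changed its order: untreated HL60 at 3.67 and 3.74 FPKM lay below untreated Kasumi-1 at 5.91 and 5.94, and treated HL60 at 52.2 and 47.7 lay above treated Kasumi-1 at 9.93 and 10.4 (change of the gap -2.75, SE 0.10, limma adjusted p = 3.3e-07).

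Promoter sequences were read to show what the inflammatory and growth genes have in front of their starts. The motifs were searched on both strands of the 250 bases before and 50 bases after each RefSeq start (GRCh38.p14), where the tested genes matched 9153 promoters. The NF-kB-type letters GGNNTTTCC were found in 5 of 8 chemokine promoters (62.5%) and 9 of 22 NF-kB group promoters (40.9%), against 6.80% of the promoters of tested genes and 6.26% of all promoters in the table. Among cytokines 1 of 18 promoters held them. The AP-1 letters TGANTCA were in 2 of 8 chemokine promoters, 3 of 18 cytokine promoters (16.7%) and 1 of 23 immediate early promoters. The background was 4.16% of the promoters of tested genes and 7.76% of all promoters. The E-box letters CACGTG were in 19 of 49 nucleolar promoters (38.8%) and 6 of 31 nucleotide synthesis promoters (19.4%), against 10.5% of the promoters of tested genes and 7.43% of all promoters, and in 3 of 64 ribosomal protein promoters (4.69%). They were also in 4 of 23 immediate early promoters (17.4%) and 5 of 34 G2 and mitosis promoters (14.7%), groups that were higher in HL60, so the motif was not limited to the growth groups. Such a match is a description of letters and does not show that a factor binds. Shown as examples are 2 genes of the chemokine and NF-kB groups that were at least 2-fold higher in HL60 and 2 genes of the nucleotide group that were at least 2-fold higher in Kasumi-1, each with the motif in the 200 bases before the start. The lines run 5′ to 3′ and end at the base before the start, with the motif letters in capitals: IL8 holds the AP-1 letters at position -137 and the NF-kB-type letters at -91 (chr4:73740369-73740568, plus strand), BCL3 the NF-kB-type letters on the opposite strand at -105 (chr19:44748508-44748707, plus strand), SRM the E-box at -199 (chr1:11060019-11060218, minus strand) and PPAT the E-box at -182 (chr4:56435616-56435815, minus strand).
IL8: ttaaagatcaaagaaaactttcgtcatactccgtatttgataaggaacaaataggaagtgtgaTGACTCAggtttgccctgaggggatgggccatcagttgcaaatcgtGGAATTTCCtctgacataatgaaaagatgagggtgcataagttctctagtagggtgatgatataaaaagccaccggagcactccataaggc
BCL3: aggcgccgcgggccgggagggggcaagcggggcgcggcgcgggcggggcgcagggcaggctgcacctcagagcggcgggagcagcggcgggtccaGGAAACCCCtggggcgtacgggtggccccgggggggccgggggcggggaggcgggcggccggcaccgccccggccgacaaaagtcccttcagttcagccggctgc
SRM: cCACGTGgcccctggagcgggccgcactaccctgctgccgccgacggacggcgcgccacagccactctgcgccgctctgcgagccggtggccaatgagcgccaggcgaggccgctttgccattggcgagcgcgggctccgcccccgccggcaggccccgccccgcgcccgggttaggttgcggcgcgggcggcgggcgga
PPAT: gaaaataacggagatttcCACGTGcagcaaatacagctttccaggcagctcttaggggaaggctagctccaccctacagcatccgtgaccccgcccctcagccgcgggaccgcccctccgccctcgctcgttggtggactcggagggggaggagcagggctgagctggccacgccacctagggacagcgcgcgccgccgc

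Feedback genes and other branches of inflammation were less uniform. RGS2, which ends G protein signalling, stood at 282 and 250 FPKM in treated HL60 and at 1.67 and 2.28 in treated Kasumi-1, after 5.37 and 4.04 against 3.64 and 2.02 without the drug. SOCS3 was higher in HL60 at 19.6 and 18.7 against 1.12 and 1.28 FPKM, whereas SOCS2 was higher in Kasumi-1 at 9.66 and 11.3 against 0.0582 and 0.0534. Of 20 tested members of the group of MAPK phosphatases, SOCS and RGS proteins, 12 were at least 2-fold higher in HL60 and 2 in Kasumi-1. Of the 20, 4 passed through HL60 alone and 1 through Kasumi-1 alone. Toll-like and inflammasome genes gave 6 and 3 of 21, and 5 of the 21 passed through HL60 alone. TLR4 was at 17.8 and 18.3 against 2.07 and 2.12 FPKM, but TLR2 at 4.27 and 4.65 against 22.8 and 25.3. The pore-forming GSDMD was at 6.33 and 6.19 against 50.6 and 42.1. Interferon-stimulated genes were divided, with 11 of 21 tested called higher in Kasumi-1 and 8 in HL60 (median 0.48, untreated 0.38). At least 2-fold higher were 9 in Kasumi-1 and 1, GBP2, in HL60, and 4 of the 21 passed through Kasumi-1 alone. IFITM3, an antiviral membrane protein, was at 8.21 and 5.69 against 258 and 266 FPKM and IFITM1 at 1.74 and 2.01 against 72.1 and 67.1. Of 29 tested adhesion genes 13 were at least 2-fold higher in HL60 and 8 in Kasumi-1. Of the 29, 6 passed through HL60 alone and 1 through Kasumi-1 alone. The integrin ITGAL, at 41.0 and 41.6 against 0.752 and 0.761 FPKM, had a gap not called as changed by the drug (limma adjusted p = 0.20).

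MYC exchanged its order between the lines. Treated HL60 held 30.3 and 29.2 FPKM and treated Kasumi-1 199 and 202, while the untreated values were 786 and 749 in HL60 and 308 and 310 in Kasumi-1. No libraries overlapped in either state. The difference was 2.71 (SE 0.05) in treated and -1.31 in untreated cells, a change of 4.02 (SE 0.07, limma adjusted p = 8.8e-08). Its partner MAX differed little, at 32.5 and 31.4 against 39.2 and 36.4 FPKM (0.23, SE 0.07, limma adjusted p = 0.011), and this call was lost without treated HL60 replicate 2 (0.21, limma adjusted p = 0.061) or treated Kasumi-1 replicate 1 (0.18, limma adjusted p = 0.070). MXD1, a MYC antagonist, was higher in HL60 at 18.6 and 19.1 against 5.37 and 6.04 FPKM. MYCN was listed at 0 in HL60 and stood at 1.39 and 1.57 FPKM in Kasumi-1.

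Most nucleolar and ribosomal protein genes were called higher in treated Kasumi-1, and nucleotide synthesis genes were divided. Of 59 tested nucleolar and pre-rRNA processing genes 20 were at least 2-fold higher in Kasumi-1 and 1 in HL60, with a median of 0.57 in treated and -0.22 in untreated cells, and 46 gaps moved towards Kasumi-1 against 1 towards HL60. BOP1, of the complex that matures the large subunit, was at 8.77 and 9.40 FPKM in treated HL60 and at 82.9 and 86.2 in treated Kasumi-1, and its partner WDR12 at 9.21 and 8.50 against 36.4 and 36.9. NPM1, nucleophosmin, stood at 708 and 683 against 1479 and 1450 FPKM, after untreated values that were not called different (0.14, limma adjusted p = 0.096). The exception RRN3, which recruits RNA polymerase I, was at 20.3 and 20.7 against 6.42 and 7.21 FPKM. In the nucleotide, one-carbon and polyamine list 19 of 36 were called higher in Kasumi-1 and 11 in HL60, with 11 and 7 at least 2-fold. IMPDH2, which commits purines to guanine nucleotides, was at 23.5 and 24.0 against 348 and 355 FPKM, PAICS, a purine synthesis enzyme, at 28.1 and 29.5 against 165 and 174, and SRM, spermidine synthase, at 18.4 and 20.6 against 96.9 and 105. PPAT, the first enzyme of purine synthesis, whose promoter is shown above, was at 6.68 and 7.51 against 27.6 and 31.3 FPKM. The serine pathway enzyme PSAT1 and the ribonucleotide reductase subunit RRM2 ran towards HL60, at 118 and 124 against 23.9 and 26.9 and at 103 and 108 against 22.6 and 24.3 FPKM.

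Of 79 cytosolic ribosomal protein genes 70 were called higher in Kasumi-1, 2 higher in HL60 and 7 were not called, and 26 were at least 2-fold higher in Kasumi-1 by limma with none in HL60. Their median was 0.74 in treated and -0.01 in untreated cells, with 67 gaps called towards Kasumi-1. Under quantile normalization, which gives all libraries the same distribution of values, 38 were called higher in Kasumi-1 and 18 in HL60 with a median of 0.17, so the size of this result and the split of calls depend on the scaling. Together they made up 27.9% of the summed FPKM of tested genes in both treated HL60 libraries and 40.8% and 38.3% in treated Kasumi-1, after 39.5% and 37.8% in untreated HL60 and 39.3% and 37.2% in untreated Kasumi-1. A share of this size enters every other FPKM value of the library. RPL12 stood at 698 and 756 FPKM in treated HL60 and at 2632 and 2293 in treated Kasumi-1, and RPS2 at 1000 and 1085 against 2921 and 2847. RPL21 was the larger of the exceptions at 3363 and 3144 against 2201 and 1779 FPKM. Ribosomal protein genes have many processed pseudogenes, so single members are less certain than the count. Translation factors gave 10 of 38 at least 2-fold higher in Kasumi-1, a share near the 22.3% of all genes, and 1, EIF1, in HL60.

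Lipid and energy genes were mixed. Of 23 tested cholesterol genes 9 were at least 2-fold higher in treated Kasumi-1 and 1 in HL60, whereas without the drug 1 had been higher in Kasumi-1 and 9 in HL60, and 22 gaps moved towards Kasumi-1. DHCR7, the last enzyme of cholesterol synthesis, was at 1.80 and 2.33 FPKM in treated HL60 and at 35.4 and 37.3 in treated Kasumi-1, after 62.6 and 67.3 against 42.6 and 44.7. Fatty acid genes gave 5 of 13 at least 2-fold higher in Kasumi-1 and 3 in HL60 (median 0.24, untreated -0.28), where the desaturase FADS2 was at 2.85 and 3.16 against 62.7 and 64.8 FPKM. Respiratory chain and ATP synthase genes gave 8 of 46 at least 2-fold higher in Kasumi-1, a share no larger than the 22.3% of all genes, and 2 in HL60. The largest difference was in ATP5C1 at 61.3 and 58.3 against 336 and 296 FPKM. In glycolysis the lists were even, with 7 of 24 at least 2-fold higher in each line: the neuronal-type glucose transporter SLC2A3 was at 49.6 and 49.5 against 2.99 and 3.16 FPKM and the phosphofructokinase PFKP at 5.66 and 5.08 against 48.4 and 50.3.

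Most genes of the CDK inhibitor and G1 cyclin list and of the mitotic list were called higher in HL60. Of 40 tested G2 and mitosis genes 34 were called higher in HL60 and 4 in Kasumi-1, 15 of them at least 2-fold higher in HL60, with a median of -0.80 against -0.10 in untreated cells. UBE2C, which drives mitotic exit, was at 356 and 327 FPKM in treated HL60 and at 73.1 and 55.9 in treated Kasumi-1. MKI67, the proliferation marker, was at 68.4 and 72.1 against 28.4 and 30.8 FPKM, while untreated values of 20.1 and 22.5 against 21.1 and 23.4 were not called different. Among CDK inhibitors, G1 cyclins and E2F factors 16 of 29 tested were at least 2-fold higher in HL60 and 3 in Kasumi-1. CDKN1A, the inhibitor p21, was at 17.5 and 17.5 against 0.373 and 0.224 FPKM, the antiproliferative BTG2 at 87.4 and 87.0 against 0.170 and 0.149 and the G1 cyclin CCND3 at 271 and 294 against 8.84 and 9.21. CDK6 was higher in Kasumi-1, at 33.3 and 46.7 against 5.24 and 6.12 FPKM. The CDK inhibitor CDKN2C also ran towards Kasumi-1, at 18.7 and 18.4 FPKM in treated HL60 and 47.7 and 46.6 in treated Kasumi-1. Its difference of 1.30 was 1.02 without the drug. DNA replication genes showed a smaller difference, with medians of -0.48 and -0.40 in treated and untreated cells. Of 43, 7 were at least 2-fold higher in HL60 and 3 in Kasumi-1, below the 18.4% and 22.3% of all genes.

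Replication-dependent histone transcripts, most of which lack a poly(A) tail, were also higher in HL60, with 17 of 22 tested at least 2-fold higher there and 1 in Kasumi-1 (median -1.82, untreated -0.38), and 9 passed through HL60 alone. HIST1H2BK was at 299.6 and 310.3 FPKM in treated HL60 and at 24.9 and 25.6 in treated Kasumi-1. The non-polyadenylated RNA RN7SK, left out of the tests as a short RNA, moved with them: it stood at 129 and 102 FPKM in treated HL60 and at 59.3 and 41.9 in treated Kasumi-1, against 12.7 and 19.4 and 11.8 and 24.5 in the untreated lines. Its part in the histone values was not tested.

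Survival and stress genes were mostly higher in HL60. Of 19 tested BCL2 family genes 7 were at least 2-fold higher in HL60 and 2 in Kasumi-1 (median -0.72, untreated 0.11). MCL1, an anti-apoptotic member, stood at 251 and 273 FPKM in treated HL60 and at 38.5 and 42.4 in treated Kasumi-1, and the NF-kB target BCL2A1 at 173 and 144 against 1.22 and 0.861. PMAIP1, the pro-apoptotic NOXA, was at 141 and 148 against 8.32 and 9.93 FPKM. BCL2 itself overlapped between the lines, at 7.20 and 8.97 against 7.5 and 9.55 FPKM, and was not called (0.07, SE 0.13, limma adjusted p = 0.65). Death receptor, CFLAR and IAP genes gave 8 of 21 at least 2-fold higher in HL60 and 1 in Kasumi-1 (median -0.81), with the TRAIL receptor TNFRSF10B at 76.1 and 66.6 against 7.52 and 7.07 FPKM. The integrated stress response, by which cells answer amino acid shortage or misfolded protein, had 25 of 29 tested genes at least 2-fold higher in HL60 and 1, ALDH1L2, in Kasumi-1 (median -1.74, untreated -0.95). PPP1R15A, the phosphatase subunit that ends this response, was at 183 and 182 against 16 and 15.2 FPKM. HMOX1, haem oxygenase, was at 22.4 and 20.1 against 0.359 and 0.269 FPKM, and FTH1, the ferritin heavy chain, at 1862 and 1925 against 218 and 219, within an NRF2 and iron list of which 8 of 25 were at least 2-fold higher in HL60 and 3 in Kasumi-1. Lysosome and autophagy genes were divided, with 9 of 37 at least 2-fold higher in HL60 and 6 in Kasumi-1. These shares were near the 18.4% and 22.3% of all genes. The autophagy gene GABARAPL1 was at 90.1 and 87.3 against 1.24 and 1.5 FPKM, and the lysosomal glucosidase GAA at 0.529 and 0.522 against 86.6 and 90.4.

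Heat shock proteins formed the opposite group. Of 24 tested 9 were at least 2-fold higher in Kasumi-1 and 1, DNAJB2, in HL60, but their median of 0.62 was not above the 0.74 of untreated cells, and 12 gaps moved towards HL60 against 6 towards Kasumi-1. HSPB1, the small chaperone HSP27, was at 2.03 and 2.33 FPKM in treated HL60 and at 207 and 208 in treated Kasumi-1, and HSP90AB1 at 160 and 158 against 609 and 606. Of 8 tested metallothionein and zinc genes all 8 gaps moved towards HL60, with a median of -1.20 after 0.67 in untreated cells. Of the 8, 2 passed the filter through HL60 alone. MT1E changed its order, at 15.3 and 12.7 against 7.13 and 5.17 FPKM with the drug and 7.48 and 4.09 against 17.8 and 17.7 without.

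Genes of the sodium pump, which cardiac glycosides block, were mostly higher in HL60. Of 13 pump subunits and FXYD regulators 4 were tested, with 2 at least 2-fold higher in HL60 and 1 in Kasumi-1. Of the 4, ATP1B1 passed the filter through HL60 alone, so its direction was set by the filter. The beta subunit ATP1B3 was at 246 and 239 against 121 and 112 FPKM (-1.05, SE 0.07), ATP1B1 at 2.77 and 2.25 against 0.659 and 0.738 (-1.04, SE 0.09) and FXYD5 at 142 and 152 against 402 and 406 (1.45, SE 0.06). Neither of these beta subunits had been called different without the drug (limma adjusted p = 0.92 for ATP1B3 and 0.69 for ATP1B1). Of 31 tested genes of sodium, calcium and potassium handling 12 were at least 2-fold higher in HL60 and 4 in Kasumi-1, with SGK1, a salt-regulated kinase, at 62.4 and 61.8 against 0.419 and 0.387 FPKM.

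**Figure D3:**
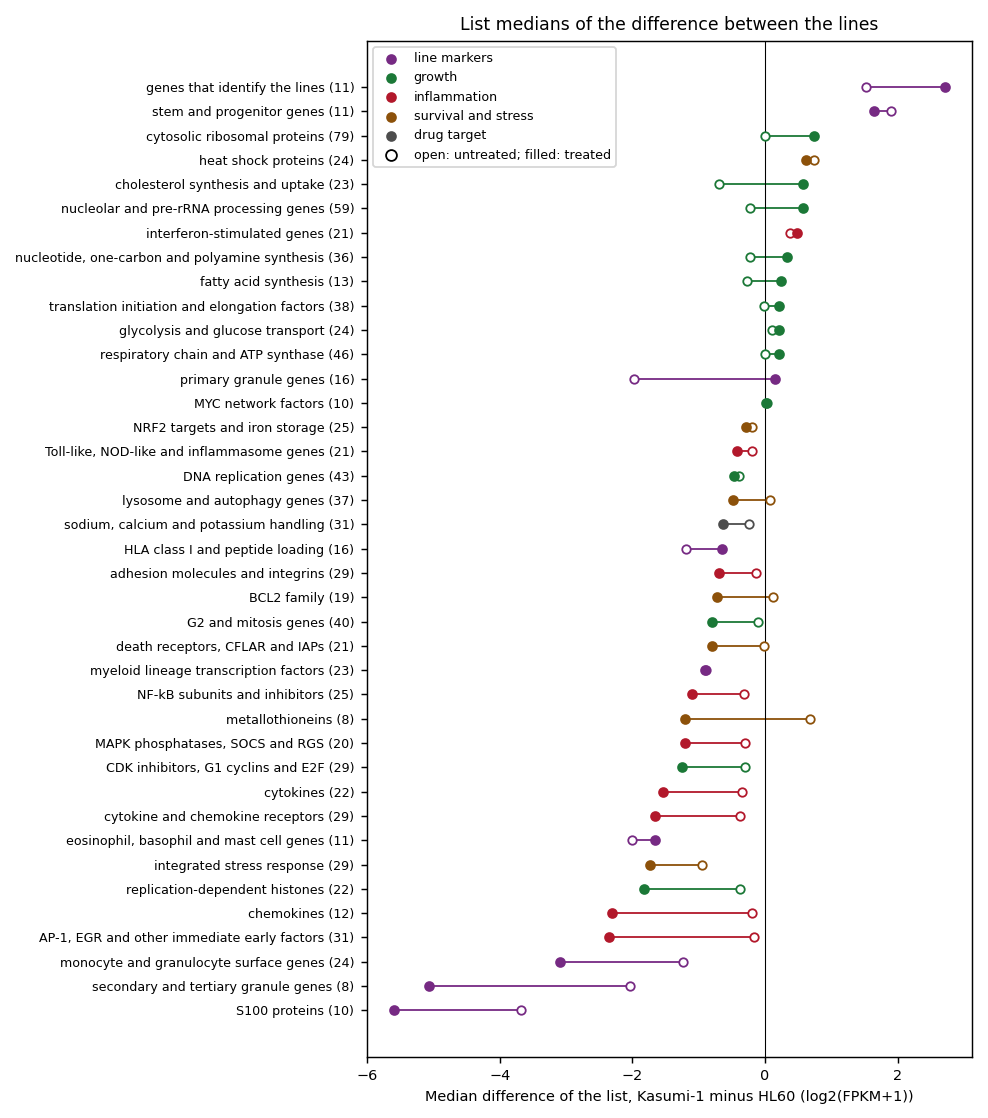
Median Kasumi-1 minus HL60 difference in log2(FPKM+1) of gene lists with at least 8 tested members (number in brackets), open circles for untreated and filled circles for treated cells, coloured by theme. The medians of chemokines and immediate early factors lie at -2.30 and -2.36 with the drug and near 0 without it. That of ribosomal proteins lies at 0.74 and -0.01. Genes were filtered on the treated libraries alone, which can favour a wider difference in treated cells.

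**Figure D4:**
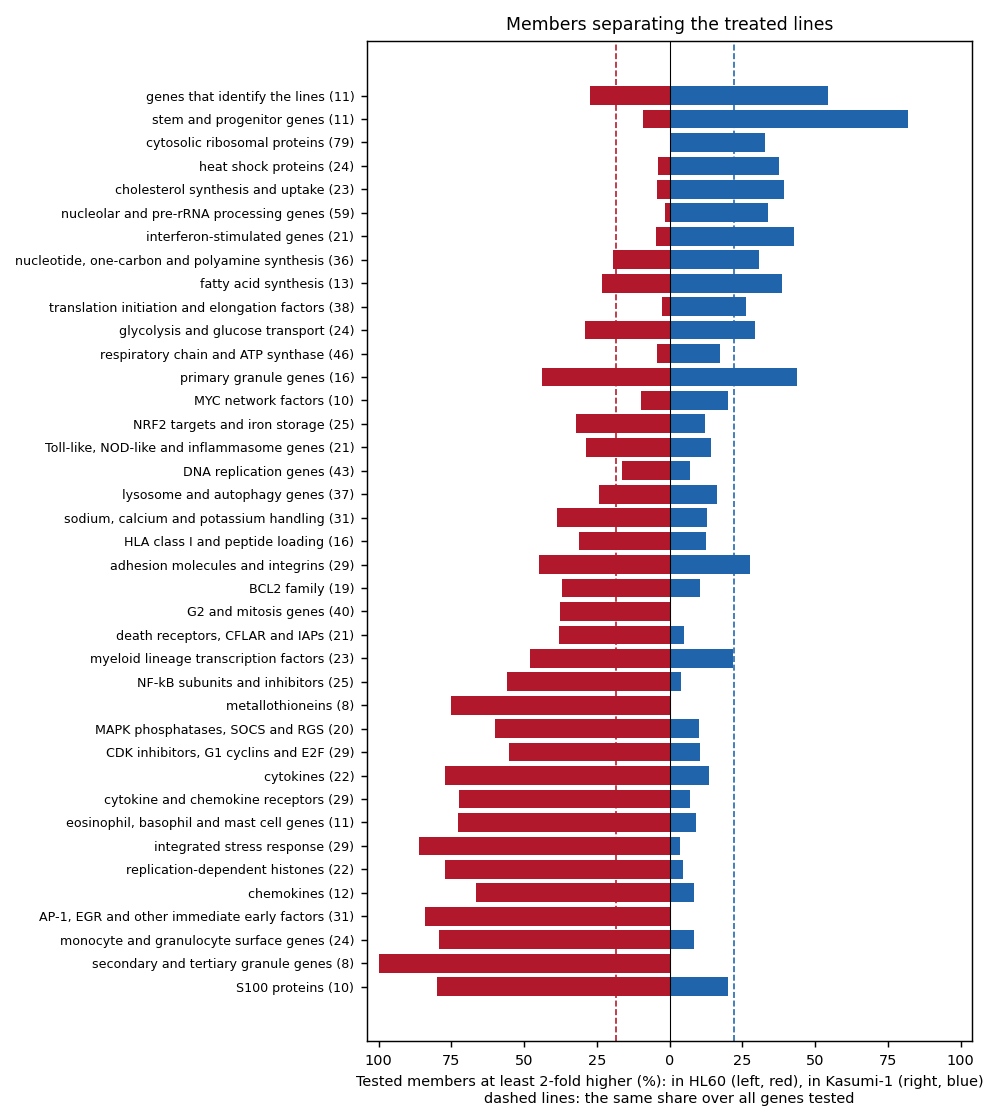
Share of the tested members of these lists that was at least 2-fold higher in treated HL60 (red, left) or treated Kasumi-1 (blue, right) by limma, in percent, with dashed lines at the 18.4% and 22.3% of all genes tested. Secondary granule genes, immediate early factors and integrated stress response genes reach farthest to the left, and stem and progenitor genes farthest to the right, but 8 of 8, 12 of 31 and 1 of 29 members of the first 3 passed the filter through HL60 alone and 7 of 11 of the last through Kasumi-1 alone.

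Genes that changed their order between the lines were a small part of the whole. In 1149 genes the difference was called with opposite signs in treated and untreated cells and in the interaction, 577 of them higher in Kasumi-1 with the drug and 572 higher in HL60. Only 25 were at least 2-fold apart in both states. IGLL1, a surrogate light chain of early B cells that was at 125 and 105 FPKM in untreated HL60, stood at 0.168 and 0.278 in treated HL60 and at 6.25 and 5.61 in treated Kasumi-1, a change of the gap of 6.34 (SE 0.15). RNASE3, the eosinophil cationic protein, was at 1.60 and 3.05 against 8.36 and 8.37 FPKM after 18.8 and 17.0 against 7.04 and 3.52. In the other direction FLOT1, a membrane raft protein, was at 117 and 108 against 10.8 and 11.8 FPKM after 6.12 and 5.55 against 14.4 and 12.4, and the phosphatase DUSP4 at 6.37 and 6.24 against 1.09 and 0.998 FPKM after 0.299 and 0.210 against 2.54 and 2.71.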

How the data were processed

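RNA-seq libraries were made from 2 libraries per line and treatment with a stranded mRNA kit, per the labels' protocols. The authors deposited 1 table of FPKM per gene symbol, with no counts, coordinates or gene lengths, so depth is known only relatively. The submitters' processing notes name bcl2fastq 2.20.0, HISAT2 2.1.0, Cufflinks 2.2.1 and hg19. No source used here gives their settings, the annotation or the strand setting, so reads of overlapping and antisense genes may be mixed. An FPKM listed at 0 may be a failed estimate.

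From the deposited FPKM, log2(FPKM+1) was fitted with limma 3.58.1 (R 4.3.3) as 4 group means over all 8 libraries (4 residual degrees of freedom, intensity trend), and p-values were adjusted over 11795 genes. A pseudocount of 1 understates differences of low genes. A permutation of 2 against 2 libraries cannot give p under 0.33, so no single-gene permutation test was run. The code was tested on simulated data. All 8 columns mapped to samples by name. Members and the 47 lists (1208 genes, 1202 with a row, 1000 tested) were chosen with earlier results of these data known. Named genes were the 10 largest treated differences per direction (called, mean of at least 5 FPKM in the higher line, no overlap), the 6 largest gap changes and 6 order changes per direction, up to 3 called members of each list per direction, and a set that included MYC, KIT, MPO, IL8, BCL2, MKI67 and sodium pump genes. Genes outside this rule were named after their values were seen. They were PPAT as a promoter shown, CSF2RA as a repeated symbol, and the late granule genes under the filter. Promoters came from RefSeq (GRCh38.p14). Alternatives were other pseudocounts, filters and scalings, the treated libraries alone, no trend, a replicate block and leaving out each library. Some genes and 1 list that the rule would name are not reported here.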

Additional observations from a re-analysis of the deposited data

Results flagged for a closer look

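The difference between the lines was not the same in treated and untreated cells, by limma's interaction test, in 3646 genes towards Kasumi-1 and 4146 towards HL60. The 6 largest changes towards Kasumi-1 among genes of at least 5 FPKM in their highest group, in log2(FPKM+1) with n = 2 libraries per group, were in IGLL1 (6.34), PRTN3 (6.14), GAL (4.86), PLXND1 (4.27), CTSG (4.21) and DHCR7 (4.17). The neuropeptide gene GAL was at 1.02 and 0.75 FPKM in treated HL60 and at 72.4 and 70.8 in treated Kasumi-1, and at 60.2 and 57.6 against 80.0 and 77.6 without the drug. PLXND1, a semaphorin receptor, was at 0.731 and 0.687 against 28.5 and 31.4 FPKM with the drug and at 31.5 and 31.5 against 28.3 and 30.9 without it. In both genes the treated HL60 libraries were the only low ones.

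Towards HL60 the 6 largest changes were in CCL4 (-7.71), CCL3 (-6.73), CCL4L1 (-6.48), CCL4L2 (-6.48), CCL2 (-6.02) and RGS2 (-5.89). CCL4L1 and CCL4L2 stood at 205 and 185 and at 205 and 187 FPKM in treated HL60 and are near-identical copies of CCL4, so their reads cannot be assigned with certainty.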

How the results depend on the processing

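The 8 counts of genes given in the report and the 264 named genes were recomputed under 16 other settings. Of the named genes 256 kept their direction and call in every setting run on them. The other 8 (BCL2, BIRC2, IL6ST, MAX, MT2A, REL, RPS15A and TPSB2) lost a call in 18 pairs of gene and setting and changed sign in 2, and the cause was not tested. BCL2, which was not called, ranged over the single left-out libraries from -0.089 without treated Kasumi-1 replicate 2, through -0.074 without treated HL60 replicate 1, to 0.22 without treated Kasumi-1 replicate 1. With a filter at FPKM 5, which tests 8814 genes, the count of genes at least 2-fold higher in untreated Kasumi-1 was 1014, and the median of the T and NK cell list became -1.82. The sign of the median was kept under every setting in 45 of 47 lists, the exceptions being that list and the MYC network list, but sizes moved: beyond the spread between replicates in 22 lists with the filter at FPKM 5, 27 with a pseudocount of 0.1, 24 with median-ratio rescaling, 34 with quantile normalization and 14 to 19 without 1 treated library. With a pseudocount of 0.1 the medians of chemokines, stem, eosinophil and monocyte genes and cytokines were -5.28, 4.33, -4.51, -5.00 and -3.53. With the filter at FPKM 5 those of chemokines, stem and eosinophil genes and cytokines were -6.73, 3.69, -4.31 and -2.91. Quantile normalization gave the ribosomal median of 0.17 in the report. Leaving out 1 library at a time gave 4749 to 5054 genes called higher in treated Kasumi-1 and 4598 to 4936 in treated HL60. Over the settings the share of calls higher in Kasumi-1 was 47.0% to 53.3%. Same-numbered replicates deviated together with correlations of 0.275 to 0.463, but the labels name no shared batch and each comparison has 2 pairs, so they were not taken as paired; with a replicate block 5285 and 5176 genes were called higher in Kasumi-1 and HL60, and gap changes in 4034 genes towards Kasumi-1 and 4631 towards HL60. The excluded short RNA SNORD50A was listed at 0 in every replicate 1 and at 45596 to 748781 FPKM in every replicate 2, which is a hint from the data that replicate numbers share a source, not a label. Precision is limited by 2 libraries per group, and depth beyond the relative values is unknown.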

Other observations

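Some gene families that were not lists of their own were also divided between the treated lines. They were chosen after their values were seen and carry no test beyond limma's over all genes. Of all genes, 22.3% were at least 2-fold higher in Kasumi-1 and 18.4% in HL60, so a split alone does not set a family apart. Some counts below, such as 2 of 9 annexins towards Kasumi-1, were near these shares. Some members were already counted above, such as the tetraspanins CD37 and CD81 in the adhesion list and SERPINB2 among the largest differences towards HL60. Of 3 nuclear lamin genes, LMNA stood at 442 and 463 FPKM in treated HL60 and at 8.0 and 8.20 in treated Kasumi-1 (difference -5.64, SE 0.07), while untreated HL60 had 13.7 and 15.5. LMNB1, at 78.2 and 77.0 against 82.8 and 90.4 FPKM, and LMNB2, at 41.4 and 42.2 against 44.5 and 46.0, were nearly level in the same libraries. Of 9 annexins 3 were at least 2-fold higher in HL60 and 2 in Kasumi-1: ANXA1, known for limiting inflammation, was at 580 and 532 against 4.76 and 3.84 FPKM, but ANXA2 at 11 and 10.4 against 50.9 and 46.4. ANXA2 was at 0.683 and 0.564 FPKM in untreated HL60, so its gap of 2.08 was smaller than the 5.63 of untreated cells.

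Of 5 galectins 3 were at least 2-fold higher in HL60 and 1 in Kasumi-1. LGALS1 was at 518 and 468 against 15.0 and 8.05 FPKM and LGALS3 at 92.5 and 82.1 against 1.18 and 0.872, whereas LGALS9 was at 13.6 and 13.5 against 85.4 and 83.3. Of 6 Siglec receptors 5 were at least 2-fold higher in HL60 and 1 in Kasumi-1. The 19 tetraspanins were split, with 8 at least 2-fold higher in Kasumi-1 and 5 in HL60, and the serpins with 5 and 4 of 10. SERPINH1, a collagen chaperone, was listed at 0 in treated HL60 and stood at 31.5 and 33.0 FPKM in treated Kasumi-1.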
